A study of Drosophila melanogaster with 2 samples.

Results

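The genes described here encode 10 forkhead transcription factors of Drosophila melanogaster, and the measurement is where the protein CG32767 was found on or beside them. The genes are CHES-1-like, fkh, slp1, slp2, foxo, FoxK, FoxP, bin, croc and jumu, out of 17 forkhead genes found in the annotation used and 13945 protein-coding genes in all. They were matched by symbol in the Ensembl annotation, and every peak with its summit inside the gene or within 5 kb of it was taken as a peak of that gene. The list of genes was chosen by results of these same peak lists, so the peaks near the members are given as a description with no test. Chromatin immunoprecipitation followed by sequencing (ChIP-seq) was done on whole embryos aged 0 to 24 h from flies carrying a CG32767-eGFP fusion, and DNA was recovered with an anti-GFP antibody in each of 2 biological replicates. Both libraries belong to 1 group, no untreated or untagged embryos were analysed here, and the sources do not name the promoter that drives the fusion. Embryos of all these ages and cell types were pooled in each sample, so a peak cannot be placed in a tissue or a stage.

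Forkhead proteins bind DNA through a winged-helix domain named after fkh, the first gene of the family to be described, and many recognise sites that hold the core TGTTTA. In the fly embryo they act at several levels: fkh directs development of the gut ends and salivary glands, the neighbouring genes slp1 and slp2 act in segmentation, bin in the visceral mesoderm and croc in the head. The protein encoded by foxo is held out of the nucleus by insulin signalling through Akt, and FoxK takes part in Dpp signalling in the midgut. CHES-1-like and jumu act in the division and specification of heart progenitors, and FoxP is known for roles in the adult nervous system.

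Each peak carries a signal value, which is the authors' own measure of its height and is ranked here within a list. Signals of the 2 replicates come from separate lists and are set side by side as given. They were not scaled to each other, and over all conservative peaks the median log2 ratio of replicate 2 to replicate 1 was -0.22. The conservative list, made by the authors from both replicates, held 3533 peaks, 3531 of them on the 6 chromosome arms, with signals from 2.028 to 1304 and a median of 104.8. A longer list from both replicates held 4636 peaks, and the lists of replicates 1 and 2 held 2887 and 2624. Ranked lists of all candidates, thresholded or not, gave the signal of a peak in each replicate. Read numbers are not given in these lists, so the depth of the libraries is unknown. All positions are 1-based on dm6, and a transcription start site is called a TSS.

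The sequences at a few of these peaks show the range of DNA on which the summits fell. Each window runs from 50 bp before to 50 bp after the summit and was read from the plus strand of the RefSeq dm6 assembly. Capitals mark, on either strand, the forkhead core TGTTTA, the word GGTCACACT, runs of 6 A, and 5 words of 7 bases. These words are AAAATAT, then AAAAATA, then TTAAAAA, then AAAAAAT, then TAAAATA, the ones whose share of summit windows outside the members most exceeded their share of flanking windows. The first 3 windows are the strongest peak of each of the 3 members that reach highest, in CHES-1-like (chrX:7698360-7698460), upstream of foxo (chr3R:14053528-14053628) and between slp1 and slp2 (chr2L:3832464-3832564). The next is the promoter peak of fkh (chr3R:28585452-28585552), the window poorest in A and T. The last 3 hold the forkhead core and lie upstream of bin (chr3L:6989286-6989386), downstream of slp1 (chr2L:3827849-3827949) and at the promoter of croc (chr3L:21476841-21476941).
CHES-1-like, intron: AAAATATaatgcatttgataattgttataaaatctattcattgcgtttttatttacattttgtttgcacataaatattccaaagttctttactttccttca
foxo, upstream: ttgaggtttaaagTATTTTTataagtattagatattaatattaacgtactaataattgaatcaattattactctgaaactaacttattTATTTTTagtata
slp2, upstream: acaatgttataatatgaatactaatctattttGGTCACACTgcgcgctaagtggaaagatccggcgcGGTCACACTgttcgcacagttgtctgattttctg
fkh, promoter: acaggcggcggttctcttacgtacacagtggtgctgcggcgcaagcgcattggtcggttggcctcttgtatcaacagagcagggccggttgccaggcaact
bin, upstream: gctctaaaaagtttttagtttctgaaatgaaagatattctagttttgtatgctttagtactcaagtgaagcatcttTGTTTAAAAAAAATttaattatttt
slp1, downstream: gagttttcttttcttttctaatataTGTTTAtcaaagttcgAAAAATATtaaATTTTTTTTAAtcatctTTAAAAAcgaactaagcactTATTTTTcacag
croc, promoter: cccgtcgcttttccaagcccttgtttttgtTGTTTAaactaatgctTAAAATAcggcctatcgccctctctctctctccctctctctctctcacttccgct

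In the conservative list, 8 of the 10 members had at least 1 summit and together they had 23, whereas 39.0% of protein-coding genes had a summit in a window of the same kind. The members without a summit were FoxP and jumu. In the longer list 8 members had a summit (29 summits, background 45.3%), in the list of replicate 1 6 members (21 summits, background 34.9%), and in that of replicate 2 8 members (19 summits, background 30.4%). The 8 of replicate 2 were not the 8 of the conservative list, since slp1 had no summit there and jumu had 1, with a signal of 3.412. Some of the summits counted are weak entries that overlap a stronger peak of the same list. Examples are 7.647 at fkh in replicate 1, and at slp2 13.22 in the longer list and 9.412 in replicate 2. Since the members were chosen with these peaks known, their counts above the background carry no weight as evidence. Of the other 7 forkhead genes (fd3F, fd19B, fd59A, FoxL1, fd96Ca, fd96Cb and fd102C), only FoxL1 had summits in the conservative list, 2 of them, which is 1 of 7 genes against the same 39.0%. These 7 are the forkhead genes left out when the members were chosen, so their low count carries no weight as evidence either.

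Per length of DNA the member windows held 1.18 conservative summits per 10 kb, over 195.0 kb, beside 0.264 across the 6 arms. The value for the arms includes DNA outside any gene window, so it is not a like background for windows around genes. CHES-1-like accounted for 9 of the 23 summits, and without it the other 9 members held 0.887 summits per 10 kb over 157.9 kb. The windows of the other 7 forkhead genes held 0.209 per 10 kb over 95.48 kb. This value, like that of the members, follows a choice made with these peaks known and carries no weight as evidence. Longer windows catch more summits: 30.3% of protein-coding genes with windows of up to 12 kb had one, and 59.7% of those over 50 kb. The mean number of summits per window was 0.437 up to 12 kb, 0.628 from 12 to 15 kb and 1.69 over 50 kb. The median window was 14.57 kb for the members and 12.17 kb for all protein-coding genes.

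**Figure D1:**
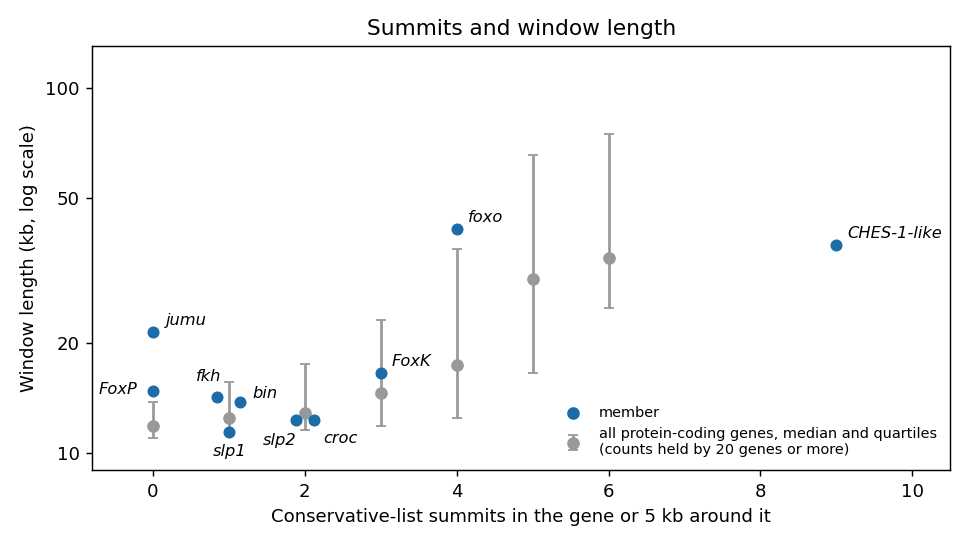
Number of conservative-list summits in the window of each gene (horizontal axis) against the window length in kb (vertical axis, log scale). Blue points are the 10 members, shifted slightly sideways where they share a count, and grey points with bars are the median and quartiles of all protein-coding genes with that count, for counts held by 20 genes or more. CHES-1-like holds 9 summits in a window about as long as that of foxo, which holds 4, and jumu holds none in a window longer than those of 7 other members.

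The summits fell at different places relative to the genes. Of the 23, 11 lay inside a member gene, all of them in CHES-1-like or FoxK, 10 lay upstream of a 5′ end and 2 downstream of a 3′ end. By annotation 7 (30.4%) were within 500 bp of a TSS of any gene, beside 50.6% of all conservative peaks, and 8 (34.8%) were intergenic, beside 11.6% of all. More than 2 kb from any TSS lay 10 of the 23 (43.5%), beside 26.8% of all. Without CHES-1-like, 6 of the other 14 summits (42.9%) were within 500 bp of a TSS and 8 (57.1%) were intergenic. More than 2 kb from any TSS lay 6 of those 14 (42.9%). These counts include both of the foxo summits that lie 205 bp apart. At a TSS of the member itself there were 5 summits, in 4 members: CHES-1-like, fkh, FoxK and croc. Among protein-coding genes 14.1% had such a summit at a TSS of their own. Inside the 5 kb limit, the summit farthest from its gene was one of foxo at 4555 bp, with a signal of 127.2. Just outside it lay summits 5454 bp from fkh, with a signal of 77.70, and 5415 bp from slp1, with a signal of 257.3, the latter counted under slp2.

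CHES-1-like (FBgn0029504, chrX:7682338-7709385, minus strand) had the most summits of the members. All 9 fell inside the gene, over 15371 bp, and only 9 of 13945 protein-coding genes had 9 or more. The gene has 4 annotated TSSs, and 8 of the 9 summits were in introns. The strongest, at chrX:7698293-7698529, had a signal of 364.2, rank 168 of the conservative list and within its upper 4.76%, and was 1706 bp upstream of the nearest TSS. In the replicates' own lists the candidate at this place had a signal of 209.2 in replicate 1 and 156.9 in replicate 2. The second, at chrX:7706857-7707107, had a signal of 328.3, with 203.4 in replicate 1 and 126.7 in replicate 2. It was 2009 bp upstream of a TSS of CHES-1-like and 803 bp from that of the long non-coding RNA gene lncRNA:CR43287.

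The other 7 peaks of CHES-1-like were lower. The peak 338 bp upstream of an internal TSS (chrX:7696847-7697236), the gene's single promoter summit, had a signal of 177.1, with 96.53 and 81.44 in replicates 1 and 2. Another 706 bp upstream of a TSS had 202.5, with 120.7 and 89.18. The remaining 5 ranged from 45.68 to 176.9. Of the 9 peaks, 8 overlapped a peak in the thresholded lists of both replicates, and the exception, with a signal of 82.32, was in that of replicate 1 alone. Replicate 1 had the higher candidate at 7 of the 9, and the median log2 ratio of replicate 2 to replicate 1 was -0.41, beside -0.22 over all conservative peaks. The summit nearest the gene's 5′ end, 178 bp downstream of the first TSS, was in the longer list (signal 141.0) and that of replicate 1, and not in the conservative one. There the replicates differed more, with 96.34 in replicate 1 and 42.89 in replicate 2.

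**Figure D2:**
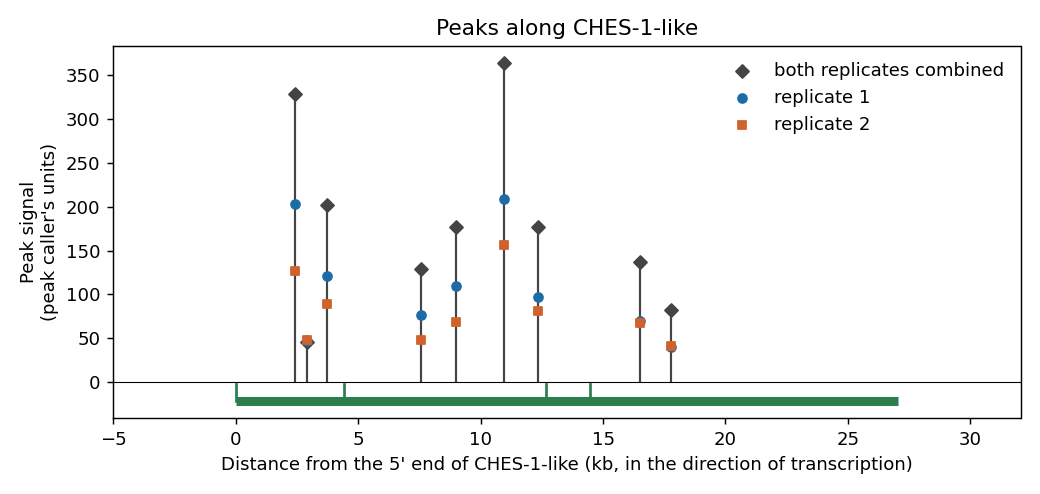
Map of the CHES-1-like gene, with distance from its 5′ end in kb on the horizontal axis and peak signal in the peak caller's units on the vertical axis, for each of the 9 conservative-list peaks (diamonds) and their candidates in replicate 1 (circles) and replicate 2 (squares). The green bar is the gene and its ticks are the 4 TSSs, to scale. Diamonds and replicate points come from different lists. The peaks with signals of 364.2 and 328.3 stand above the other 7, which reach at most 202.5.

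Upstream of foxo (FBgn0038197, chr3R:14056945-14087978, plus strand) stood the strongest peak of any member other than CHES-1-like. The peak at chr3R:14053496-14053702, 3367 bp upstream of the TSS, had a signal of 318.4, within the upper 6.23% of the conservative list. Its candidates were close in level, 180.0 in replicate 1 and 146.7 in replicate 2. A second peak, 4555 bp upstream (chr3R:14052195-14052584), had 127.2, and there replicate 1 (80.84) was higher than replicate 2 (42.71), which did not list it past the threshold. A summit only 205 bp from that one, with a signal of 11.42, overlapped the same candidates and is not an independent position. The remaining peak, with 73.86, lay 1235 bp past the 3′ end of foxo and 304 bp upstream of the TSS of Npc2b, so it cannot be assigned to foxo rather than to that gene. No conservative summit fell in the 31034 bp of foxo itself. At the promoter, 249 bp upstream of the TSS, the longer list had a peak (88.09) that the conservative one did not. Its candidates were 67.11 in replicate 1, whose thresholded list also held it, and 25.88 in replicate 2, whose list did not.

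The pair-rule genes slp1 (FBgn0003430, chr2L:3825675-3827099, plus strand) and slp2 (FBgn0004567, chr2L:3836840-3839185, plus strand) are neighbours, and their 3 conservative summits all fell in the 9740 bp between them. The strongest, at chr2L:3832413-3832605, had a signal of 257.3 and was 4326 bp upstream of slp2 and 5415 bp past the end of slp1. Its candidates were 144.9 in replicate 1 and 110.1 in replicate 2. The peak 1398 bp upstream of slp2 had 79.50, with 28.77 in replicate 1 and 53.28 in replicate 2, and that 800 bp downstream of slp1 had 84.07, with 39.43 and 44.69. Neither thresholded replicate list held the slp1 peak, and that of replicate 2 alone held the weaker slp2 peak. Position does not tell which of the genes a peak between them belongs to.

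At fkh (FBgn0000659, chr3R:28580976-28585264, minus strand), the founding member of the family, a single conservative peak lay at the promoter, 238 bp upstream of the TSS (chr3R:28585307-28585696). Its signal was 199.9, within the upper 16.2% of the list. Replicate 2 (111.8) was higher than replicate 1 (81.43), and both replicate lists held the peak.

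FoxK (FBgn0036134, chr3L:11114169-11120783, minus strand) had 3 peaks, all at promoters. The strongest (213.1, chr3L:11118557-11118946) was 286 bp upstream of an internal TSS of FoxK, and its candidates differed 1.91-fold, with 72.11 in replicate 1 and 137.6 in replicate 2. The second (165.4) was 37 bp downstream of the first TSS and within 500 bp of that of mRpL2, a mitochondrial ribosomal protein gene next to it, and here the replicates were nearly equal at 85.57 and 84.15. The third (99.43) was 2595 bp upstream of FoxK and at the promoters of NaPi-III and Ufd1, with 34.20 in replicate 1 and 59.39 in replicate 2. Only the first of these 3 summits was within 500 bp of a TSS of FoxK and of no other gene.

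The mesodermal gene bin (FBgn0045759, chr3L:6990622-6994447, plus strand) had 1 peak, 1286 bp upstream of its TSS (chr3L:6989141-6989530). Its signal was 159.7, with 89.12 in replicate 1 and 70.77 in replicate 2, and both replicate lists held it. At croc (FBgn0014143, chr3L:21474133-21476479, minus strand) the promoter peak, 412 bp upstream, had 70.15, with 38.52 and 32.66, and was past the threshold in neither replicate list. The second croc peak, 3383 bp upstream, had 120.3 and the widest ratio between replicates of the 23 peaks, 32.56 in replicate 1 against 83.96 in replicate 2, or 2.58-fold.

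**Figure D3:**
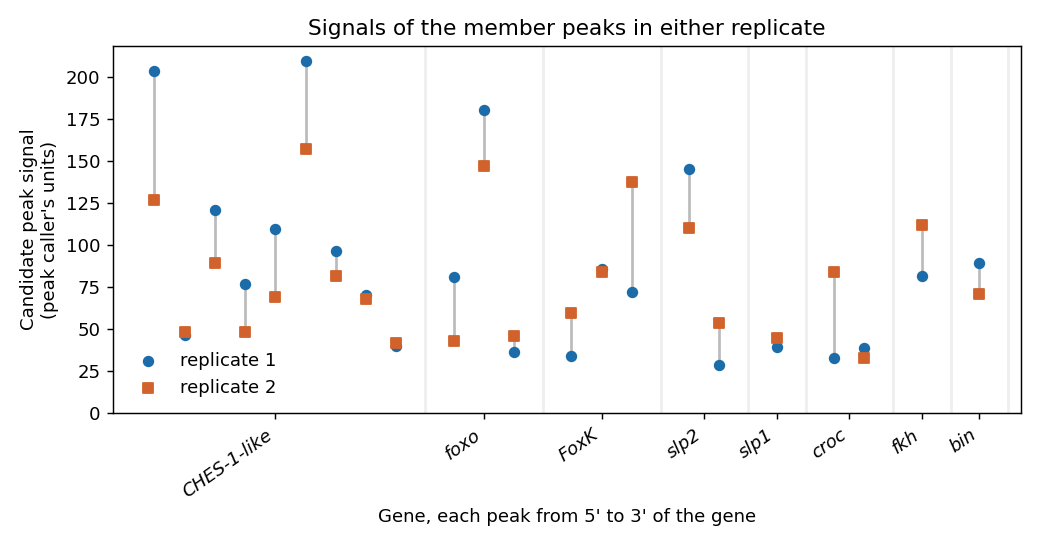
Candidate signal at each conservative-list peak of the members, with the 2 replicates as separate points, by gene and in order from 5′ to 3′, with signal in the peak caller's units on the vertical axis. The weakest foxo peak is left out because it overlaps the same candidates as its neighbour 205 bp away. Points of replicate 1 are the higher ones at most CHES-1-like peaks, whereas those of replicate 2 are higher at fkh, at the strongest FoxK peak and at the distal croc peak.

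Over the 23 member peaks the signals in the conservative list ran from 11.42 to 364.2 with a median of 136.7, and 15 were above the list's median of 104.8. Both thresholded replicate lists held 14 of them (60.9%), beside 45.8% of all conservative peaks, and neither held 3 (13.0%), beside 19.6%. Of the remaining 6, 3 were in replicate 1 alone and 3 in replicate 2 alone. The foxo summits 205 bp apart, which share their candidates, are both among these 3 of replicate 1 and are counted separately here. Without CHES-1-like the other 14 peaks had a median of 123.7, and both replicate lists held 6 of them (42.9%). Replicate 1 had the higher candidate at 14 of the 23 member peaks and at 2204 of 3488 conservative peaks with a candidate in both. With 1 library per replicate, the error of a single candidate's signal is not known.

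The heart progenitor gene jumu (FBgn0015396, chr3R:10350182-10361612, plus strand) was treated differently by the thresholded and the ranked lists. The conservative, longer and replicate 1 lists held no peak in its window, and that of replicate 2 held 1, with a signal of 3.412. That entry overlaps a replicate 2 candidate of 68.56, which was not kept in the replicate 2 list. Yet the full ranking from which the conservative list was drawn had 4 candidates inside the gene whose score passed 830, the lowest score of the thresholded lists, which corresponds to an irreproducible discovery rate (IDR) of 0.01. None of the 4 was kept in the conservative list. The strongest, at chr3R:10356969-10357358, had a signal of 136.4 and an IDR of 0.00039, with 63.37 in replicate 1 and 68.56 in replicate 2. The next, at chr3R:10351325-10351714 and 1338 bp downstream of the TSS, had 131.6 and an IDR of 0.00035, with 67.86 and 67.73. The other 2 had 64.32 and 62.26. Of 5520 protein-coding genes with a candidate past that score, 87 had no peak in the conservative list, and 10 of these, jumu included, had at least as many such candidates as jumu. The sources used here do not name the step that left these candidates out. A count of jumu as a gene with no peak therefore rests on that step and not on a lack of candidates.

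FoxP (FBgn0262477, chr3R:9726020-9730872, minus strand) had no peak in any of the 4 thresholded lists. In the ranking behind the conservative list it had 25 candidates, 16.8 per 10 kb, and the strongest of them had a signal of 35.99. The arms held 8.97 per 10 kb, a value that includes DNA outside any gene window. The windows of the other forkhead genes ranged from 0 (fd96Ca and fd96Cb) to 15.6 (FoxK) per 10 kb. At FoxP the ranking behind the longer list had 15 candidates, and those of replicates 1 and 2 had 15 and 12. In the ranking of replicate 2 the strongest FoxP candidate had a signal of 40.21 and a score of 828, just under the lowest score kept, 830, whereas in replicate 1 the strongest had 17.36. Among the strongest candidates of all protein-coding genes in the ranking behind the conservative list, whose median was 59.83, the 35.99 of FoxP was at percentile 21.5. The same percentile was 96.1 for CHES-1-like, 95.0 for foxo, 92.9 for slp2, 90.3 for FoxK, 88.9 for fkh, 84.4 for bin, 80.2 for jumu, 77.0 for croc and 65.8 for slp1. Among the other forkhead genes, FoxL1 (85.75) was at 66.6, and fd59A (56.00), fd3F (54.51), fd102C (45.21) and fd19B (28.36) were below 50. These percentiles are not adjusted for window length, 37048 bp for CHES-1-like and 41034 bp for foxo beside a median of 12.17 kb. The members were chosen, and the other forkhead genes left out, with these peaks known, so the percentiles carry no weight as evidence. In the ranking behind the conservative list fd96Ca and fd96Cb had no candidate, as did 4.60% of protein-coding genes. The ranking behind the longer list did have candidates at fd96Ca, the strongest at 74.57 with an IDR of 0.014. In the replicates' own rankings the strongest at fd96Ca had 23.78 in replicate 1 and 53.52 in replicate 2, and none of these was past the threshold.

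**Figure D4:**
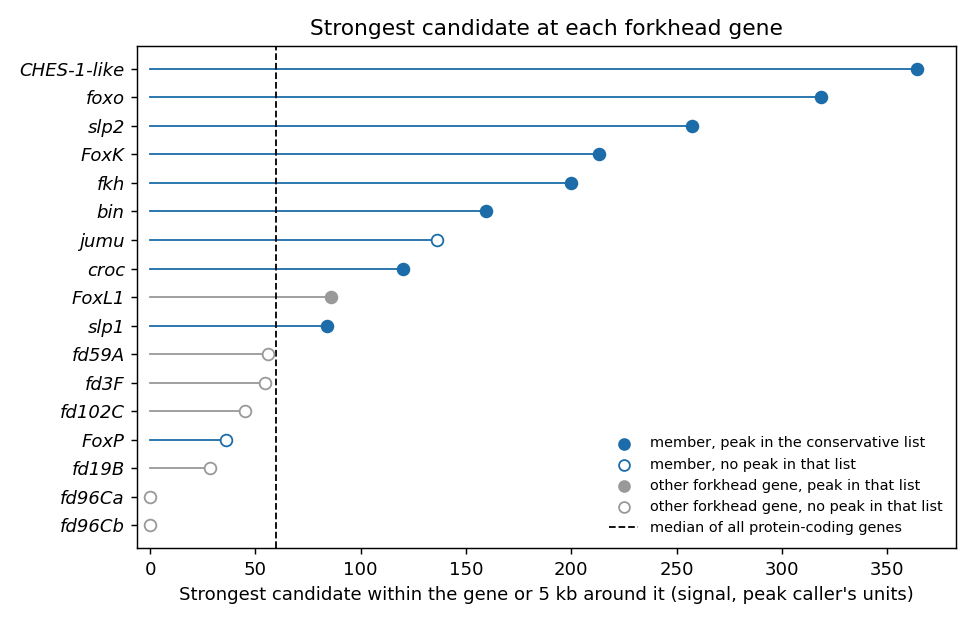
Signal of the strongest ranked candidate in the window of each of the 17 forkhead genes, members and others, in the full ranking from which the conservative list was drawn. Filled points are genes with a peak in the conservative list, and the dashed line is the median of all protein-coding genes, 59.83. Of the members only FoxP, at 35.99, lies below that line, and fd96Ca and fd96Cb, which had no candidate in the ranking behind that list, are drawn at 0.

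Both FoxL1 peaks were below the conservative list's median. The first (85.75) was 1887 bp upstream of the FoxL1 TSS, with 46.56 in replicate 1 and 41.82 in replicate 2. The second (80.50) was at the promoter of CG11594, with 40.96 and 35.58. Both were past the threshold in the list of replicate 1 alone.

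A minority of these windows held a forkhead core, and its share was not tested. TGTTTA, searched on both strands, was in 4 of the 23 member windows (17.4%, in CHES-1-like, bin, croc and slp1), in 13.1% of all conservative summit windows and in 10.7% of windows flanking them by 500 bp. The full word TGTTTAC was in none of the 23 and in 2.78% of all. Of the other words searched, GAGAG was in 2 windows (8.70%, both of croc) beside 13.0% of all, and AAAAAA was in 6 (26.1%) beside 26.2%. TATCGATA, CAGGTAG and CACACACA were in no member window and in 1.42%, 0.651% and 4.30% of all. TGTTTA is contained in TGTTTAC, and AAAAAA overlaps some of the 7-base words. A word is a match of letters and not a bound site, and its absence says nothing of a factor.

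Of the 5 words of 7 bases, AAAATAT was in 3 of the 23 member windows (13.0%) against 14.7% of the summits outside the member windows and 7.73% of their flanks. AAAAATA was in 4 (17.4%) against 15.3%, TTAAAAA in 4 against 13.2%, AAAAAAT in 5 (21.7%) against 14.5%, and TAAAATA in 2 (8.70%) against 422 of 3508. With 23 windows, 1 window is a step of 4.35 percentage points, and none of these differences was tested. GGTCACACT was searched after its sequence had been seen in the slp2 window printed above, which holds 2 copies. It was in that member window alone, and in 0.396% of all conservative windows. The share of A and T in the member windows had a median of 65.3%, from 39.6% at fkh to 83.2% at the strongest foxo peak. All conservative windows had the same median, 65.3%, while flanks had 65.8% for the members and 57.4% for all.

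Genes that work with these factors were described from lists of known pathway members. The lists were chosen with earlier results of these data known, so their shares beside the background carry no weight as evidence. Among 20 matched genes of insulin and foxo signalling, foxo itself left out, 14 had a conservative summit in their window beside the 39.0% of all protein-coding genes, and 6 had one within 500 bp of a TSS beside 14.1%. Among the strongest were those at Rheb, the activator of the growth kinase Tor (208.6, with 73.78 and 131.8 in replicates 1 and 2), InR, the insulin receptor (198.5, with 109.0 and 94.67), and 14-3-3epsilon, whose protein family binds phosphorylated FoxO (185.2, with 61.13 and 104.3). Thor, a known target of foxo that encodes the translation inhibitor of cap-dependent initiation, had 5 summits, the strongest at 116.1.

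Of 11 segmentation genes, 3 had a summit and 1 had one at a promoter, beside the same 39.0% and 14.1% of all protein-coding genes. These were h, listed as hry (93.40, with 30.62 and 59.41), inv (72.48, with 34.63 and 36.09) and odd (49.87, with 31.94 and 33.40), and each of these peaks was below the list's median. Of 12 visceral mesoderm and midgut genes, 5 had a summit and 2 a promoter summit, a share of genes with a summit close to that background of 39.0%. The mesodermal factor genes Mef2 (530.2, with 327.6 and 198.5) and tin (356.6, with 194.7 and 163.0) had the highest, followed by dpp (162.6, with 108.0 and 57.85), the BMP ligand gene, and jeb (160.7, with 99.08 and 51.39), which encodes the ligand of Alk. Of 10 salivary gland genes, 6 had a summit and 2 a promoter summit, beside 39.0% and 14.1%. They were led by the glue protein gene Sgs4 (280.8, with 173.6 and 109.7), the homeobox genes hth (141.2, with 77.75 and 60.46) and exd (92.20, with 33.54 and 53.48), and CrebA (88.40, with 73.57 and 39.37), which acts in secretion. Gene lengths differ widely, from 952 bp for Sgs4 to 132008 bp for hth, and the shares are not adjusted for that and no list was tested. Each signal is the strongest in a gene's window, and a place in the window alone does not assign it to that gene. Rheb, InR, h, inv, Mef2, dpp, jeb, Sgs4, hth and CrebA had no summit within 500 bp of a TSS of their own.

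For the 3 members whose single strongest peak was highest (CHES-1-like, foxo and slp2), the genes whose promoter peaks had the most similar pair of replicate signals were found among 1936 protein-coding genes, by the distance between log2 signals over the 2 libraries. For CHES-1-like these were papi (211.6 in replicate 1, 156.4 in replicate 2, log2 distance 0.017) and CG3009 (201.4 and 160.3, 0.063). For foxo they were for (181.6 and 145.2, 0.020) and Coq4 (177.4 and 148.2, 0.026). For slp2 they were CG15525 and CG11504, which share 1 peak (145.2 and 107.0, 0.041). Likeness over 2 libraries rests on 2 values and describes peak height alone.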

How the data were processed

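ChIP-seq for CG32767-eGFP was available for 1 group of 2 biological replicates. Per the labels, the assembly was dm6. The aligner, the peak caller and the use of a control are not stated in the sources. The authors deposited 8 peak lists, 4 thresholded and 4 ranked. The deposited signal of each peak was used as given, with no scaling between lists. The deposited score is a scaled IDR, with a minimum of 830 in the thresholded lists. The −log10 of the global IDR was read from the deposited ranked lists.

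The conservative list was the main one. A summit is the peak start plus the deposited offset, and a replicate's candidate is the strongest one in its ranked list that overlaps the peak by at least 1 bp. Sequence was read from the RefSeq dm6 assembly, and gene models were those of Ensembl release 115 (BDGP6.54). Tools were Python 3.11.15, pandas 2.3.3, numpy 2.4.6 and matplotlib 3.10.9. Only the counts of summits in windows and the distances to a TSS were checked on simulated data. No statistical test was run. The members, the gene lists and the words searched were chosen with earlier results of these data known. Named genes were the members and other forkhead genes, genes with a TSS near a member summit, the 2 nearest in replicate signals for each of 3 members, and up to 4 of each list, strongest first. A gene that this rule names is not reported here. Thor was named after its values were seen. The lists were insulin and foxo signalling, segmentation, visceral mesoderm and midgut, and salivary gland genes; 1 symbol of the first was not matched. Alternatives were the other lists, each replicate's list alone, stronger peaks, window and promoter widths, and stricter overlap.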

Additional observations from a re-analysis of the deposited data

How the results depend on the processing

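Depth is unknown, each replicate is 1 library, and the lists hold no counts, so no error can be given for a single signal. The number of members with a summit, 8, was 2 with the gene span alone, and ran from 6 to 8 in the list of 1 replicate. The summits in the member windows, 23, were 15 in the upper 50% of the list by signal and 11 with the gene span alone, and ran from 19 to 21 in the list of 1 replicate. Member summits near a TSS, 7, were 4 in the upper 50% and 3 within 250 bp, and ran from 5 to 8 in the list of 1 replicate. The share of protein-coding genes with a summit, 39.0%, was 45.3% in the longer list, 26.2% in the upper 50%, 27.2% with 2 kb on either side and 10.8% with the gene span alone, and from 30.4% to 34.9% in the list of 1 replicate. Peaks in both replicate lists, 14, stayed between 10 and 14. Of 53 values for single members under the alternatives, 50 moved little, but 43 of these only looked up a replicate's candidate again within 100 bp of the summit. Places with no such candidate were left out of that count. With 2 kb windows 5 of 8 strongest signals moved little, and those of slp2, foxo and croc dropped to 79.50, 73.86 and 70.15. With the gene span alone only the 2 members that kept a summit were compared, and neither moved. A stricter IDR was not run. No paired analysis was possible because there is 1 group and the results come from no test.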

Other observations

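Among the 13945 protein-coding genes, 9 had 9 or more conservative summits in their window, and CHES-1-like was one of them. The others were kirre with 13, CG1677 and sbb with 12 each, CG14434 and Raf with 11 each, Tlk and msn with 10 each, and ph-p with 9. These genes were named after their values were seen. Windows as long as that of CHES-1-like or longer belonged to 744 protein-coding genes, and 56.5% of these had a summit.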
